A study of Drosophila melanogaster with 10 samples.

Results

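The 10 autophagy genes Atg1, Atg2, Atg5, Atg6, Atg7, Atg8a, Atg9, Atg12, Atg13 and Atg18a were examined in Drosophila SL2 cells after RNA interference against MBD-R2. Each gene was taken by its symbol, among 11982 genes for which some probe set names 1 gene. Where a gene has several such probe sets the brightest over the 10 arrays stands for it, but all 10 had 1 probe set each. All 10 also passed the filter on low values, a mean log2 level of at least 4 over the 10 arrays, since the lowest of their means was 6.22.

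SL2 is an established male cell line derived from Drosophila embryos, so the measurements come from cultured cells of 1 line. Cells were given 10 µg of double-stranded RNA (dsRNA), either control dsRNA for GST or 1 of the MBD-R2 constructs M1 and M2. MBD-R2 is a subunit of the NSL chromatin complex, which contains the histone acetyltransferase MOF. RNA was extracted after 7 days at 26 °C. There were 3 arrays for GST, 3 for M1, 3 for M2, and 1 array of cells that received no dsRNA. The third M2 array carries M3 in its title and M2 in its other labels. "Knockdown" names the treatment with M1 or M2, since the level of the MBD-R2 transcript itself was not analysed here.

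In autophagy a membrane sheet grows around cytoplasm, closes into an autophagosome and fuses with the lysosome, where the content is degraded. The Atg1 kinase complex starts the process, a PI3-kinase complex with Atg6 marks the membrane with a phosphoinositide, and Atg9, Atg2 and Atg18a bring lipid to the growing sheet. A pair of ubiquitin-like proteins, Atg12 and Atg8a, is then activated by the E1-like enzyme Atg7. Atg12 is joined to Atg5, and Atg8a is joined to a membrane lipid. In flies the pathway is best known from the starved larval fat body and from the removal of larval tissues at metamorphosis.

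The values are log2 expression levels made with GCRMA, and the lowest value in the table, 2.22, was shared by all arrays. Per array, 50.5% to 53.1% of probe sets were at most 0.1 log2 units above it. The 9 dsRNA arrays fell into 2 sets, replicates 1 and 2 against replicate 3, and results are given within each set where they differ. Of 9 hemocyte genes taken as markers of the line, such as srp, Hml and Pxn, all 9 were measured, with means of 10.42 to 13.91, and NimC1 was higher after knockdown (9.22 in GST, 11.43 in knockdown arrays). Of the 3 neuronal markers measured, brp was higher after knockdown (6.22 and 7.40), elav did not pass and nSyb lay at the lowest table value, and the summed level of this list, the log2 of its summed linear levels, was 7.13 to 7.80 in GST, 8.17 to 9.19 in M1 and 8.34 to 9.32 in M2 arrays. The lamellocyte gene PPO3 was lower (8.21 and 6.58), while ItgaPS4 of the same list was not tested, and this list summed to 7.95 to 8.64, 6.10 to 7.84 and 6.31 to 7.75. Of the germline markers nos and osk did not pass in limma (adjusted p of 0.166 and 0.102), and the 3 measured summed to 5.91 to 6.50, 6.85 to 8.25 and 6.99 to 8.32. All 3 fat body markers lay near the lowest table value, and muscle markers were not analysed here. The part of these shifts in the results below was not tested. In a population of cells, fewer cells that express a gene and less RNA per cell cannot be told apart.

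Knockdown was compared with GST, taking the mean of M1 and M2, to ask which of the Atg transcripts depend on MBD-R2. Atg12 and Atg7 fell, by 1.93-fold and 3.03-fold, and 0 of the 10 genes rose. In limma's test 2 of 10 genes passed an adjusted p of 0.05, both lower, against 25.3% of all 7298 probe sets tested, 7.85% higher and 17.4% lower, so the share of the Atg genes was near the background. Of these genes Atg5 and Atg8a are X-linked and the other 8, the called genes included, are autosomal. The median log2 fold change of the 10 genes was 0.15, against -0.03 over all probe sets tested. In 3 of 10 genes, Atg6, Atg7 and Atg12, all 6 knockdown arrays lay below all 3 GST arrays, a pattern seen in 21.7% of all tested probe sets. In the other 7 genes the groups overlapped. Under other settings the calls were 4 of 10 with the array set as a block (48.5% of all probe sets), 2 within replicates 1 and 2 alone (38.9%), and 1 at over 2-fold (15.9%). After quantile normalisation 2 were called, both lower (26.3% of all probe sets, 11.1% higher and 15.2% lower). After centring on the spike-in controls 0 were called, with 0 at an unadjusted p under 0.05 in limma (3.45% of all, 1.88% higher and 1.58% lower). With GST replicate 2 also left out under that centring, 3 were called, all lower (16.2% of all).

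**Figure D1:**
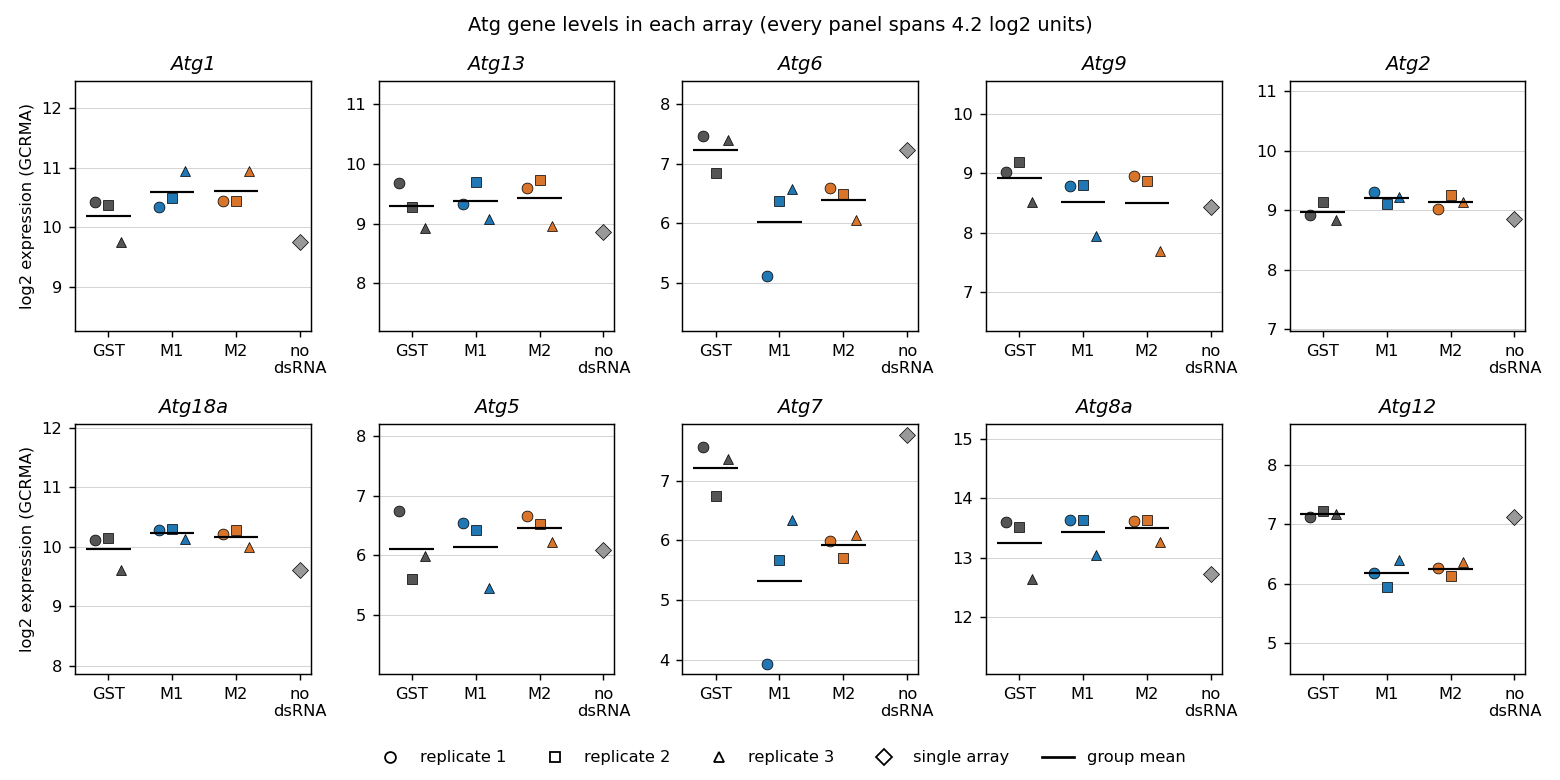
Log2 expression level (vertical axis, GCRMA) of each of the 10 Atg genes in every array, with 1 panel per gene, columns for GST, M1, M2 and no dsRNA, symbols for the replicate number and bars for the group means (n = 3). Atg12, Atg7 and Atg6 show all 6 knockdown arrays below the 3 GST arrays, while replicate 3 stands apart from replicates 1 and 2 in Atg1, Atg8a and Atg9.

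Atg12 encodes the ubiquitin-like protein that is joined to Atg5. Its log2 level was 7.12, 7.22 and 7.17 in GST replicates 1 to 3, 6.19, 5.94 and 6.40 with M1, 6.27, 6.12 and 6.37 with M2, and 7.12 without dsRNA. The GST arrays lay within 0.10 log2 units of each other, and every knockdown array was below every array without knockdown. The group means were 7.17 ± 0.05 with GST, 6.18 ± 0.23 with M1 and 6.25 ± 0.12 with M2 (SD, n = 3). Against GST the log2 fold change was -0.95 ± 0.14 (SE, 6 arrays against 3, limma adjusted p = 0.0016). It was called in each of 10 fits that left out 1 array, with adjusted p values of 0.0016 to 0.0096. For every gene, the fit without the no dsRNA array repeats the main comparison with GST, since that array is alone in its group.

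Atg7 encodes the E1-like enzyme that activates both Atg12 and Atg8a. Its log2 level was 7.56, 6.74 and 7.36 in the GST arrays and 7.77 without dsRNA. With M1 it was 3.93, 5.68 and 6.34, and with M2 it was 5.99, 5.71 and 6.09. The lowest array was M1 replicate 1, 1.71 log2 units above the lowest table value, and the groups did not overlap. The group means were 7.22 ± 0.43 with GST, 5.31 ± 1.24 with M1 and 5.93 ± 0.20 with M2 (SD, n = 3), so M1 varied most. Its log2 fold change was -1.60 ± 0.48 (SE, limma adjusted p = 0.0416), or -1.25 (adjusted p = 0.0125) without M1 replicate 1. The call was lost, with adjusted p values of 0.0587 to 0.14, when GST replicate 1, 2 or 3, M1 replicate 2, or M2 replicate 1, 2 or 3 was left out. Within replicates 1 and 2 alone the adjusted p was 0.0413.

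The other conjugation genes among the 10 did not pass. Atg5, which forms a conjugate with Atg12, had log2 levels of 6.75, 5.60 and 5.99 with GST, 6.55, 6.43 and 5.45 with M1, and 6.65, 6.52 and 6.23 with M2. Its GST arrays spanned 1.15 log2 units, the widest range of the 10 genes, and 5 of the 6 knockdown arrays lay within that span, M1 replicate 3 being lower. The log2 fold change was 0.19 ± 0.32 (SE, limma adjusted p = 0.735), with a 95% interval of -0.55 to 0.93. Atg8a, the ubiquitin-like protein that coats the autophagosome and is widely used as its marker, measured 13.60, 13.52 and 12.65 with GST, 13.63, 13.64 and 13.05 with M1, and 13.62, 13.64 and 13.27 with M2. In every group replicate 3 was the lowest array, and each knockdown array was above the GST array of its own number. The log2 fold change of Atg8a was 0.22 ± 0.25 (SE, adjusted p = 0.612), with a 95% interval of -0.37 to 0.80.

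Atg6, the fly Beclin 1, is a subunit of the PI3-kinase complex. Its log2 level was 7.46, 6.84 and 7.40 with GST, 5.11, 6.37 and 6.57 with M1, 6.60, 6.49 and 6.06 with M2, and 7.22 without dsRNA. All 6 knockdown arrays lay below the lowest GST array, with M1 replicate 1 the lowest, as for Atg7. The group means were 7.23 ± 0.34 with GST, 6.02 ± 0.79 with M1 and 6.38 ± 0.29 with M2 (SD, n = 3). Knockdown minus GST was -1.03 ± 0.33 (SE, limma adjusted p = 0.0564), which missed the threshold. It passed with the replicate number as a block (adjusted p = 0.0473), without M1 replicate 1 (-0.80, adjusted p = 0.0349) and without M1 replicate 3 (-1.17, adjusted p = 0.0347).

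Atg9 is the membrane protein of the group, a lipid scramblase carried on vesicles. It measured 9.03, 9.19 and 8.52 with GST, 8.78, 8.80 and 7.95 with M1, 8.95, 8.86 and 7.70 with M2, and 8.44 without dsRNA. Each of the 6 knockdown arrays was below the GST array of its own number, but the groups overlapped, with replicate 3 the lowest array of each. Its log2 fold change was -0.41 ± 0.34 (SE, limma adjusted p = 0.452) and its adjusted p was 0.0488 once the replicate number was fitted as a block. With that block 4 of the 10 genes were called lower, Atg6, Atg7, Atg9 and Atg12, and 0 higher, against 43.7% of all probe sets, 18% higher and 25.7% lower.

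Atg2, the lipid transfer protein, had log2 levels of 8.93, 9.14 and 8.84 with GST, 9.30, 9.11 and 9.22 with M1, and 9.03, 9.25 and 9.13 with M2. Atg18a, its partner that binds the phosphoinositide, measured 10.11, 10.15 and 9.61 with GST, 10.28, 10.31 and 10.13 with M1, and 10.21, 10.29 and 10.00 with M2. In both genes all 6 knockdown arrays were above the GST mean but overlapped the GST arrays. The log2 fold changes were 0.20 ± 0.13 (SE) for Atg2 (limma adjusted p = 0.3) and 0.24 ± 0.16 for Atg18a (adjusted p = 0.327). Atg13, the regulatory subunit of the Atg1 complex, measured 9.68, 9.28 and 8.93 with GST, 9.33, 9.70 and 9.08 with M1, and 9.60, 9.73 and 8.96 with M2. The knockdown and GST arrays of Atg13 overlapped throughout. Knockdown minus GST was 0.11 ± 0.25 (SE, adjusted p = 0.82), and the 95% interval ran from -0.46 to 0.67.

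Atg1, the kinase that starts autophagy, differed between the sets of replicates. Its log2 level was 10.43 and 10.37 in GST replicates 1 and 2, against 10.35 and 10.49 with M1 and 10.44 and 10.43 with M2. In replicate 3 it was 9.76 with GST and 9.76 without dsRNA, but 10.95 with M1 and 10.94 with M2. The knockdown difference was 0.03 log2 units within replicates 1 and 2 and 1.19 in replicate 3, which has 1 GST array. The sets were seen in these same data and are not in the labels, so an interaction p for them is a description. In limma the interaction of knockdown with the set was 1.16 ± 0.14 (SE, adjusted p = 0.0051), for 1 of the 10 genes, against 9.91% of all tested probe sets. Pooled over the sets, Atg1 did not pass, at 0.41 ± 0.22 log2 units (SE, adjusted p = 0.23).

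Of the other 9 Atg genes, 8 had knockdown differences of the same sign in both sets. Atg5 differed in sign, at 0.36 within replicates 1 and 2 and -0.15 in replicate 3. Atg12 was -1.04 and -0.78, Atg7 -1.83 and -1.15, Atg6 -1.01 and -1.08, and Atg9 -0.26 and -0.70. Atg8a was 0.07 and 0.51. The smallest adjusted p of the interaction among these 9 genes was 0.118.

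**Figure D2:**
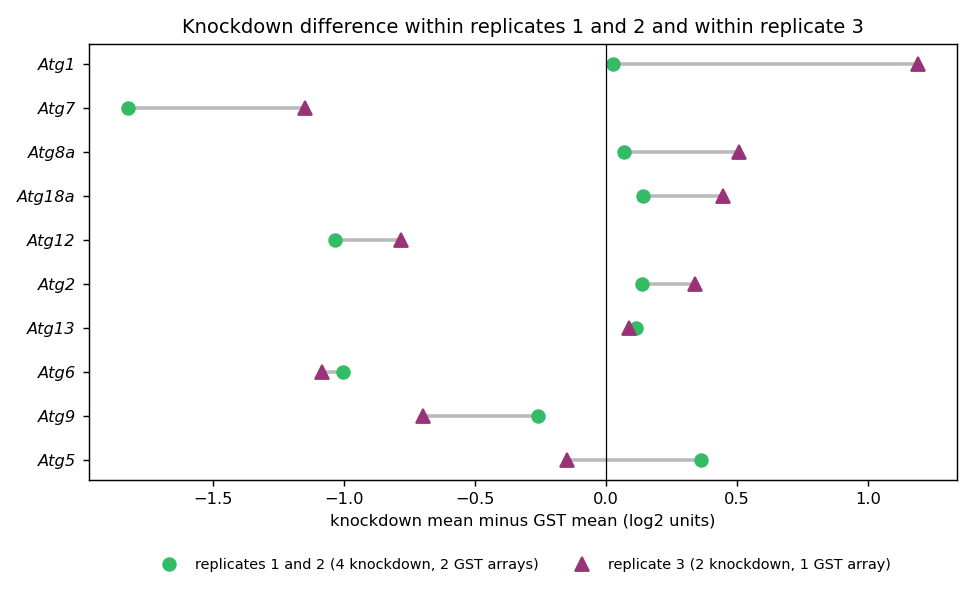
Knockdown mean minus GST mean in log2 units (horizontal axis) for each Atg gene, with circles for replicates 1 and 2 (4 knockdown and 2 GST arrays) and triangles for replicate 3 (2 knockdown arrays and 1 GST array). Atg1 is near 0 in replicates 1 and 2 and at 1.19 in replicate 3, while Atg7, Atg12, Atg6 and Atg9 lie left of 0 in both sets.

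Each construct was set against GST on its own, and both share the GST arrays. With M1, 2 of 10 Atg genes were called, against 20.4% of all tested probe sets, and with M2 1 of 10, against 18.8%. Atg12 was at -0.99 ± 0.16 on the log2 scale (SE, limma adjusted p = 0.0036) with M1 and -0.91 ± 0.16 (adjusted p = 0.0058) with M2. Atg7 was at -1.91 ± 0.55 (adjusted p = 0.0432) with M1 and at -1.29 ± 0.55 (adjusted p = 0.152) with M2. Leaving out any of the 7 arrays named for Atg7 above ended its call with M1 too. Atg6 was at -1.21 ± 0.39 (adjusted p = 0.0617) and -0.85 ± 0.39 (adjusted p = 0.177). Without M1 replicate 1, Atg6 and Atg7 were called with M2 as well as Atg12. When only the compared groups were fitted, Atg7 was called with M2 (15.7% of all probe sets) and not with M1 (17%). Atg12 was called with both in that fit. The call of Atg7 is thus not particular to M1.

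**Figure D3:**
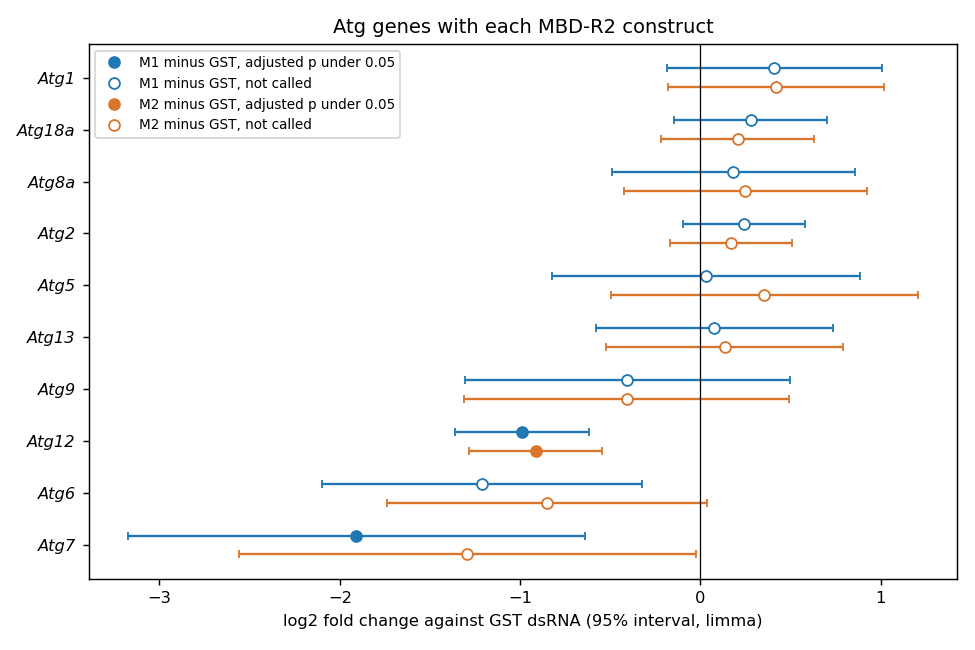
Log2 fold change against GST (horizontal axis) of the 10 Atg genes with M1 and with M2, each with its 95% interval from limma over 3 arrays against 3, filled where the adjusted p was under 0.05. Atg12 is filled for both constructs and Atg7 for M1 only, and the intervals of M1 and M2 overlap for every gene shown.

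M2 was also tested against M1 directly, and 0 of the 10 genes passed in limma, with 0 at an unadjusted p under 0.05, against 0% of all tested probe sets. The largest difference was that of Atg7, M2 minus M1, at 0.62 ± 0.55 log2 units (SE), with a 95% interval of -0.65 to 1.88. For Atg12 the difference was 0.08 ± 0.16, with an interval of -0.29 to 0.45. The half-width of the interval ran from 0.34 for Atg2 to 1.27 for Atg7. Differences below the half-width would not reach an unadjusted p under 0.05 in that gene. With the adjustment over all tested probe sets, larger differences could also go uncalled.

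Cells without dsRNA gave the background of dsRNA exposure. In limma 0 of the 10 genes passed against GST, with 0 at an unadjusted p under 0.05 and 0% of all probe sets called. Beside those given above, the levels without dsRNA were 6.08 for Atg5, 12.73 for Atg8a, 8.86 for Atg2, 9.61 for Atg18a and 8.85 for Atg13. The differences from the GST mean ranged from -0.52 for Atg8a to 0.55 for Atg7. For 8 of the 10 genes this array was nearer to GST replicate 3 than to GST replicates 1 and 2. It lay within 0.18 log2 units of GST replicate 3 in all genes except Atg7, where it was 0.41 higher. With 1 array in the group, these values do not show that dsRNA had no effect.

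The rest of the pathway was taken from a list of 34 further autophagy and lysosome genes, of which 31 had a probe set that names 1 gene and 29 passed the filter on low values. Of these 29, 2 rose and 4 fell, a total of 6, beside the 7.85% higher and 17.4% lower of all probe sets, and their median log2 fold change was -0.01. With the replicate number as a block 5 were higher and 6 lower (18% and 25.7% of all). The balance moved to 3 higher and 2 lower after quantile normalisation, where 11.1% of all probe sets were higher and 15.2% lower. After median centring it was 3 and 3, where 25.4% of all were called. Those that moved are described by role, beside the Atg genes of the same role.

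**Figure D4:**
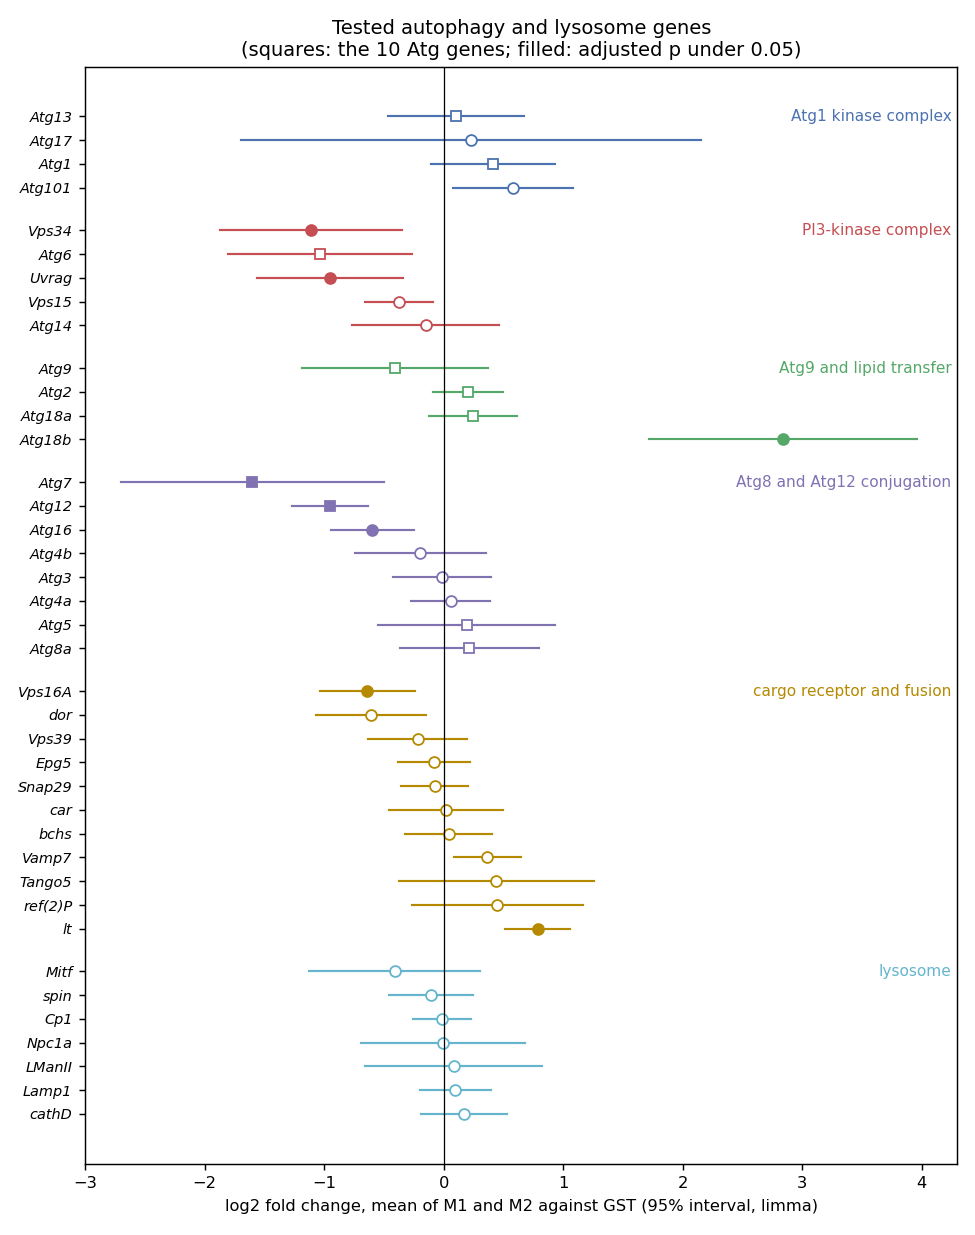
Log2 fold change of knockdown, M1 and M2 averaged, against GST (horizontal axis, with 95% intervals from limma, 6 arrays against 3) for the 10 Atg genes (squares) and the 29 other tested genes (circles), grouped by role and filled where the adjusted p was under 0.05. Atg18b stands farthest to the right at 2.84, Atg7 farthest to the left at -1.60, and 0 lysosome genes are filled.

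The largest change of the pathway was the rise of Atg18b, which encodes a second member of the phosphoinositide-binding family of Atg18a. Its log2 level was 7.01, 6.85 and 6.42 with GST, 9.18, 9.57 and 10.53 with M1, 8.76, 8.79 and 10.73 with M2, and 6.15 without dsRNA. All 6 knockdown arrays were above all GST arrays, with replicate 3 the highest of each construct. The log2 fold change was 2.84 ± 0.49 (SE, limma adjusted p = 0.0037), a 7.15-fold rise, against 0.24 ± 0.16 for Atg18a. It was called in each of 10 fits that left out 1 array. Within replicates 1 and 2 the difference was 2.15, and in replicate 3 it was 4.21.

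In the PI3-kinase complex 2 of 4 further subunits fell and 0 rose, where 17.4% of all probe sets were called lower. Pi3K59F, the lipid kinase Vps34, had a log2 level of 7.85 ± 0.24 with GST (SD, n = 3), 6.97, 6.96 and 6.12 with M1, and 7.17, 7.24 and 5.98 with M2. Uvrag, which joins the complex in endosome and autophagosome maturation, measured 7.40, 7.29 and 6.90 with GST, 6.05, 6.50 and 5.88 with M1, and 6.62, 6.75 and 5.72 with M2. In both genes the knockdown arrays lay below all GST arrays. Knockdown minus GST was -1.11 ± 0.33 for Vps34 (SE, limma adjusted p = 0.0413) and -0.95 ± 0.27 for Uvrag (adjusted p = 0.0325). Both calls were lost without the filter (adjusted p of 0.159 for Vps34 and 0.119 for Uvrag), after quantile normalisation (0.0998 and 0.125) and after spike-in centring (0.999 for both), and that of Vps34 after median centring (0.0527). Vps34 also lost its call in 6 and Uvrag in 4 of the 10 fits without 1 array. For Vps34 these were the fits without GST replicate 1, 2 or 3 or M1 replicate 1, 2 or 3, and for Uvrag those without GST replicate 1 or 2 or M1 replicate 1 or 3. Vps15, the regulatory kinase subunit, was at -0.37 ± 0.12 (adjusted p = 0.0615), with all 6 knockdown arrays below the GST arrays. It passed once the replicate number was a block (adjusted p = 0.0291). This made 3 of 4 subunits lower, where the same block called 25.7% of all probe sets lower. Atg14, which directs the complex to autophagosome formation, was at -0.15 ± 0.27 (adjusted p = 0.751).

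Of the conjugation genes beyond the 10, 1 of 4 tested passed, a share like the 25.3% of all probe sets. Atg16, which binds the Atg12 and Atg5 conjugate, measured 9.23, 9.08 and 9.52 with GST, 8.46, 8.77 and 8.77 with M1, and 8.56, 8.82 and 8.71 with M2. It fell by 0.60 ± 0.15 on the log2 scale (SE, limma adjusted p = 0.0217) and lost its call without GST replicate 1 or 3 or M2 replicate 1. The call was also lost after spike-in centring (adjusted p = 0.999) and when GST replicate 2 was left out under that centring (0.0922). The E2-like enzyme Atg3 (-0.02 ± 0.18, adjusted p = 0.963) and the proteases Atg4a (0.06 ± 0.14, 0.822) and Atg4b (-0.19 ± 0.24, 0.632) did not pass. Atg8b and the only probe set that names Atg10 alone had means of 2.22 and 3.27, below the filter, and were not tested. A further Atg10 probe set also names CG12822 and was not used.

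In the Atg1 kinase complex the 2 further subunits did not pass in limma, with 1 at an unadjusted p under 0.05. This was Atg101, at 0.58 ± 0.22 (SE, adjusted p = 0.0911), whose adjusted p was 0.0348 once the replicate number was a block. Its log2 level was 8.49, 7.73 and 7.59 with GST, 8.48, 8.76 and 8.42 with M1, and 8.61, 8.56 and 8.28 with M2, so GST replicate 1 lay among the knockdown arrays. Without GST replicate 1 its adjusted p was 0.0138.

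Of 11 tested genes that the list places under cargo recognition and autophagosome fusion, Tango5 among them, 1 rose and 1 fell. A share of 2 of 11 is not above the 25.3% of all probe sets. Both encode subunits of the HOPS tethering complex, of which 3 other tested subunits did not pass, dor (-0.61 ± 0.20, limma adjusted p = 0.0585), car (0.02 ± 0.21, 0.967) and Vps39 (-0.21 ± 0.18, 0.455). lt, the fly Vps41, rose by 0.79 ± 0.12 (SE, limma adjusted p = 0.0019), from 11.01, 10.77 and 10.77 with GST to 11.57, 11.74 and 11.62 with M1 and 11.62, 11.59 and 11.67 with M2. Vps16A fell by 0.64 ± 0.17 on the log2 scale (adjusted p = 0.0282), from 9.52, 9.30 and 9.60 to 8.48, 8.83 and 9.13 with M1 and 8.82, 8.73 and 9.04 with M2. The arrays of lt and Vps16A did not overlap between GST and knockdown. Vps16A lost its call without the filter (adjusted p = 0.0676) and without GST replicate 1 or 3, M1 replicate 2, or M2 replicate 1 or 2, whereas lt kept it in each such fit. After spike-in centring both lost it (adjusted p of 0.923 for lt and 0.999 for Vps16A). With GST replicate 2 also left out under that centring, both lost it too (0.794 and 0.0902). Once the replicate number was a block, 3 of the 11 were higher, Vamp7 and Tango5 being added, and 2 lower, dor being added. With this block 43.7% of all probe sets were called, 18% higher and 25.7% lower. The cargo receptor ref(2)P, the fly p62, was at 0.45 ± 0.31 (adjusted p = 0.354), with differences of 0.10 within replicates 1 and 2 and 1.15 in replicate 3. Among 7 lysosome genes 0 passed in limma, with 0 at an unadjusted p under 0.05, and the smallest p was that of Mitf, the transcription factor of lysosomal genes (-0.41 ± 0.31, adjusted p = 0.4).

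In the annotated genome 4 of the 10 Atg genes overlap another gene, and 4 of these overlapping genes were tested. Their log2 fold changes were 0.21 for CG42709 (Atg1), 0.08 for CG1677 (Atg5), 0.13 for CG5335 (Atg7) and -0.17 for ND-SGDH (Atg12). Of these, 0 passed in limma, with 0 at an unadjusted p under 0.05, beside the 25.3% of all probe sets called. With 4 genes, a count of 0 says little against that share. Of 13 tested genes that lie next to an Atg gene without overlap, 3 fell, a share near the 17.4% of all probe sets called lower. They were CG12093 (-1.75) and mRpS35 (-1.23) on either side of Atg2 and CG7747 (-1.82) beside Atg9. Atg2 itself was at 0.20.

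The genes whose levels over the 10 arrays were most like those of Atg12 and Atg1 were picked by Pearson correlation among 5905 other tested genes. For Atg12 they were CG9581 (r = 0.99), Trm7-34 (0.99) and CG5412 (0.988), with log2 fold changes of -1.71, -1.86 and -1.80. For Atg1 they were c(3)G (r = 0.978), lncRNA:CR30055 (0.971) and lncRNA:CR43242 (0.97), with log2 fold changes of 0.68, 0.77 and 0.63. These correlations over 10 arrays are a description, since all values share the arrays and their grouping.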

How the data were processed

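For each of 10 arrays the deposited table gives log2 levels, which the authors made with GCRMA per the submitters' processing notes, a method of background correction, normalisation and probe summary. No version is named in the sources used here. Precision is limited by how many arrays there are.

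Of 18952 probe sets 183 controls were left out. Among the rest 13647 name 1 gene, 402 several and 4720 are unnamed here. Genes were matched by Entrez identifier to RefSeq Release 6, used for symbols and neighbours only. Probe sets with a mean of at least 4 were tested (7298, for 5906 genes) in R 4.3.3 with limma 3.58.1 (lmFit, then eBayes), on the means of the 4 groups over all 10 arrays, two-sided, Benjamini-Hochberg adjustment over all tested probe sets and a threshold of 0.05. The fit was tested on simulated data. Intervals are at 95%. Figures used Python 3.11.15 and matplotlib 3.10.9.

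Samples were grouped by title or source name. Per the series' design text replicates are biological. Same-numbered arrays deviated together from their group means in all 9 pairs (r of 0.34 to 0.93), so the replicate number was fitted as a block. Arrays of different number in the same set also correlated (0.55 to 0.75), and across the sets r was -0.89 to -0.54. Deviations from a mean of 3 sum to 0, so these negative values are partly built in. In replicates 1 and 2, GST and knockdown arrays correlated less at the same number (0.34 to 0.49) than at different numbers (0.55 to 0.67). M1 and M2 correlated more at the same number (0.79 and 0.83, against 0.70 and 0.75). Pairing of GST with knockdown arrays by number is thus not shown there. For the array set as a block the array without dsRNA was placed with replicate 3.

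The genes named are the 10 Atg genes, up to 4 called genes per role of the further list, or in a role with none the gene of lowest p, and the 3 genes most correlated with the Atg gene of smallest p in each direction. Other genes are named after their values were seen. The Atg genes, the lists and the alternatives were chosen with earlier results of these data known.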

Additional observations from a re-analysis of the deposited data

Results flagged for a closer look

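The knockdown effect on Atg1 differed between the sets of replicates in limma's interaction test. In replicate 3 it was 1.165 log2 units above the effect in replicates 1 and 2 (SE 0.14, adjusted p = 0.0051). Both knockdown arrays of replicate 3 were above all other arrays of Atg1, and the GST array of replicate 3 was below those of replicates 1 and 2. The sets were seen in these same data and are not in the labels, so the adjusted p describes this difference and is no independent test. The replicate 3 set holds 1 GST array, which could not be left out of this test. Without each of the other 8 dsRNA arrays the difference was 1.14 to 1.19 and the call was kept. Groups of 3 arrays were not examined for single outlying arrays.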

How the results depend on the processing

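Results were recomputed under 26 alternatives, those for the further pathway genes and for the interaction being added after seeing the data. The differences of Atg12, Atg7, Atg6 and Atg9 kept their sign in every fit. At an adjusted p of 0.05 Atg12 lost its call with M1 and M2 together after spike-in centring (-0.71, adjusted p = 0.999) and in no other fit. At 1.93-fold it misses the threshold of over 2-fold. Under spike-in centring the SE of Atg12 was 0.76, against 0.14 on the deposited scale. The median of the 9 spike-in probe sets was 12.77 in GST replicate 2 and 9.82 to 11.85 in the other arrays. The part of this spread in the lost calls was not tested. Atg7 lost its call after spike-in centring and without the filter (adjusted p = 0.174), beside the 7 fits without 1 array named above.

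Percentages in parentheses are the shares of all tested probe sets called in the same fit. Of the 10 Atg genes with M1 and M2 together, 1 was called without the filter (7.53%) or with over 2-fold change (15.9%). With an adjusted p under 0.01, 1 was called too (14.5%). There were 4 with a block for the replicate number (43.7%) or for the array set (48.5%). After spike-in centring 0 were called (3.45%), with 0 at an unadjusted p under 0.05 in limma. With M1 alone 1 was called without the filter (6.03%), after quantile normalisation (19.8%) or in a fit of the compared groups (17%). M1 gave 1 with an adjusted p under 0.01 (11%) or over 2-fold (15.1%). After spike-in centring M1 gave 0 (2.27%), with 1 at an unadjusted p under 0.05 in limma. With M2 alone 2 were called with array weights (35%) or in a fit of the compared groups (15.7%). With over 2-fold change M2 gave 0 (13.6%), with 2 at an unadjusted p under 0.05 in limma. After spike-in centring M2 gave 0 (1.71%), with 0 at an unadjusted p under 0.05. After that centring without GST replicate 2 it also gave 0 (8.29%), with 3 at an unadjusted p under 0.05. Leaving out 1 array gave 1 to 3 for these comparisons (13.2% to 25.3%). The replicate block changed no call of M1 (37.4%) or M2 (36.3%) alone. M2 against M1 and no dsRNA against GST stayed at 0 in each fit run.

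Of the 29 further genes, called were 1 after spike-in centring, Atg18b (3.45% of all probe sets), 2 when GST replicate 2 was also left out (16.2%), 10 with the array without dsRNA pooled with GST (32%), 11 with either block (43.7% for the number, 48.5% for the set), 2 with an adjusted p under 0.01 (14.5%) or with over 2-fold change (15.9%), and 3 to 7 without 1 array, with the lowest count without GST replicate 1 (19.2%). In the interaction test 0 Atg genes passed after spike-in centring (0 at an unadjusted p under 0.05, Atg1 at 0.31, adjusted p = 0.915) and 2 with trend and robust options (Atg8a at 0.44, adjusted p = 0.0376), and 1 in each fit without 1 array.

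Spike-in centring took the median over all tested probe sets from -0.03 to 0.21 on the log2 scale, and to -0.62 without GST replicate 2. Relative to that median Atg12 was -0.92 on the deposited scale, -0.92 after this centring and -0.86 when GST replicate 2 was also left out. The first 2 values are equal by construction, since this centring shifts each array by 1 constant. They are therefore no test of the fall of Atg12. Values that changed sign without GST replicate 2 under this centring, and were not called in either fit, were Atg1 (-0.046), Atg13 (-0.46), Atg2 (-0.26), Atg18a (-0.22), Atg5 (-0.62), Atg8a (-0.21) and Atg101 (-0.076). On the deposited scale, leaving out 1 array gave -0.064 (without GST replicate 2) to 0.51 for Atg5, and -0.079 to 0.30 for Atg13 and -0.088 to 0.39 for Atg8a, each lowest without GST replicate 3. The cause was not tested. Another probe set per Atg gene was not run because each has 1.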
